A study of Mus musculus with 2 samples.

Results

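Bcl11a, Sox6, Zbtb7a, Lin28b, Igf2bp1, Igf2bp2, Igf2bp3, Hmga2 and Arid3a were followed through the blood lineages of the mouse foetal liver, 9 genes chosen by symbol from the 27998 genes of the count matrices. The cells came from 1 wild-type C57BL/6 liver (C57BL/6J in the study's methods) at embryonic stage E12.5, were sorted by flow cytometry away from debris, dead cells and doublets, and were sequenced as 2 technical replicate libraries of droplet single-cell RNA-seq. There was no treatment and no second genotype, so the comparisons are between cell types of that liver. Primitive erythroid cells (EryP, 170 cells in library 1 and 118 in library 2) were compared with definitive erythroid cells, which are the authors' types Ery (932 and 818 cells) and Eryb (3820 and 3612 cells) combined. The authors divided the definitive cells further into Ery 1 and Ery 2 (Ery) and Ery 3 to Ery 6 (Eryb), and the other types were haematopoietic stem and progenitor cells (spelled HPSC in the deposited table), megakaryocytes (Mk), granulocytes (G), monocytes and Kupffer cells (Mo/KC), hepatoblasts (Hepa) and endothelial cells (EC).

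Primitive erythroid cells arise in the yolk sac and carry embryonic globins, whereas definitive erythroid cells arise from later progenitors, mature in the foetal liver and in the mouse use adult globins. BCL11A, SOX6 and ZBTB7A (also called LRF) are transcription factors known as repressors of embryonic and foetal globin genes, and BCL11A and ZBTB7A act with the NuRD chromatin remodelling complex. LIN28B is an RNA-binding protein that blocks maturation of the let-7 microRNAs. Let-7 in turn lowers the mRNAs of a set of foetal genes, among them Igf2bp1, Igf2bp2 and Igf2bp3 (RNA-binding proteins that stabilise mRNAs), Hmga2 (an architectural chromatin protein of stem cells) and Arid3a (a DNA-binding factor of lymphoid and foetal progenitors), so that a cell with high LIN28B keeps a foetal programme.

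The shared seed of let-7 is what links the Lin28b programme in sequence, and the mature forms are shown for that reason. The 9 mature 5p names of the mouse let-7 family in RefSeq (GRCm38.p6) were all 22 bases long and all held the same seed, bases 2 to 8, which is in capitals here. The microRNAs themselves were not measured, since droplet libraries of this kind capture polyadenylated mRNA. The following members show how the bases outside the seed vary.
mmu-let-7a-5p: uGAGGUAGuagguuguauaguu
mmu-let-7b-5p: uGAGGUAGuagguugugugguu
mmu-let-7g-5p: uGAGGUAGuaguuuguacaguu
mmu-miR-98-5p: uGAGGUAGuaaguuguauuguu

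A complement of that seed (CTACCTC, read on the mRNA strand alone) stood in the longest annotated 3′ UTR of all 6 genes of the Lin28b programme and in none of the 3 globin repressors, whose 3′ UTRs were 3263 bases (Bcl11a), 6046 bases (Sox6) and 3787 bases (Zbtb7a) long. Over 20996 genes with a 3′ UTR in GENCODE vM21, 8.95% held CTACCTC, and 18.9% of the 6143 genes did whose 3′ UTR was at least as long as that of Igf2bp2, the shortest of the 6 at 1784 bases. Lin28b, Igf2bp1 and Hmga2 held 4 sites each, Arid3a 2, and Igf2bp2 and Igf2bp3 1 each. Of all 20996 genes, 0.152% held 3 or more, a share not limited to long 3′ UTRs, since their median length was 953 bases. The Lin28b programme was listed for its link to let-7, so these sites are not independent of the choice. The first site of each gene that also had an A after the seed complement (CTACCTCA, in 3.02% of the genes) is shown with its flanks, because these are the letters through which let-7 could pair with each mRNA. Capitals mark CTACCTCA, coordinates are GRCm38, and a match is a description of the letters and not of binding.
Lin28b, chr10:45381015-45381037, minus strand: cgggaagtCTACCTCAtgcaagc
Igf2bp1, chr11:95961771-95961793, minus strand: gaagtaaaCTACCTCAaggtgtg
Igf2bp2, chr16:22059466-22059488, minus strand: aataaaagCTACCTCAggtgttt
Igf2bp3, chr6:49086780-49086802, minus strand: ttactcaaCTACCTCAggtattc
Hmga2, chr10:120364217-120364239, minus strand: ttcaatttCTACCTCAgcatcag
Arid3a, chr10:79953902-79953924, plus strand: gtttctttCTACCTCAggtcttt

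TGACCA, the letters that BCL11A is known to read, were searched on both strands in the 250 bases before the start of 6 globin genes in the RefSeq promoter table (GRCm38.p6). They stood in the promoters of the embryonic genes Hbb-y (86 bases before the start) and Hba-x (40 bases before it) and not in those of the adult genes Hbb-bs, Hbb-bt, Hba-a1 and Hba-a2, while 11.4% of 32851 promoters held them. The strings CCACACCC and AACAAT were searched in the same way. Each stood in 1 of the 6 globin promoters, Hbb-bs and Hba-x respectively, and in 3.2% and 9.42% of all promoters. Hbb-bh1 was not among the promoters searched. Those of Hbb-y and Hba-x are shown because these are the embryonic globin promoters that hold the letters of Bcl11a, with TGACCA in capitals.
Hbb-y, chr7:103853208-103853457, minus strand: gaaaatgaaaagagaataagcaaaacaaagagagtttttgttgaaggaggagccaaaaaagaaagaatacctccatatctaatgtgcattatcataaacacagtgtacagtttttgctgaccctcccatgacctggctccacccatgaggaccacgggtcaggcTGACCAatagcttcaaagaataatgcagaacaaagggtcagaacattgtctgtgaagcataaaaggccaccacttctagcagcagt
Hba-x, chr11:32276350-32276599, plus strand: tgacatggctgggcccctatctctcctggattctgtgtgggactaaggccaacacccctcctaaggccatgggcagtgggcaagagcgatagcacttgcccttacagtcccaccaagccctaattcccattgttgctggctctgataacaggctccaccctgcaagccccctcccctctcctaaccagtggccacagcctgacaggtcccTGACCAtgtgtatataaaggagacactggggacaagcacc

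Levels are given as CPM, the usual scale on which each group's total is set to 1e+06, that is the unique molecular identifiers (UMIs) of a gene summed over the cells of a group in 1 library and divided by all UMIs of that group, with exact Poisson 95% intervals in brackets that cover counting error only. The 2 libraries are technical replicates of 1 liver, so no test between animals was possible and no p-value is given. Library 1 held 5480 cells and 51969226 UMIs and library 2 held 5057 cells and 62738015 UMIs, and 31 cell barcodes occurred in both. The shallowest cell had 504 UMIs in library 1 and 4387 UMIs in library 2, so cells below the latter depth were in library 1 alone. A gene was called lower or higher where its CPM differed at least 2-fold in the same direction in both libraries, with at least 10 UMIs over the compared groups in each. Of 31 cell type markers, 25 were highest in their own type in both libraries, the exceptions being Klf1, Gata1, Epor and Gata2 in Ery, Klf1 in Eryb and Myb in HPSC. The cell types were defined by the authors from the expression of these same cells, so differences between them are descriptions. Globin UMIs took up 76.7% and 82.5% of EryP but 21.5% and 40.9% of definitive cells, a share that lowers the CPM of every other gene.

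In EryP, all 3 globin repressors were low. Bcl11a and the Lin28b programme were low also in the most mature definitive cells, whereas Sox6 was high there, and Arid3a alone of the 9 genes was higher in EryP than in definitive cells. Against all definitive cells, 5 of the 9 genes were called lower in EryP (Bcl11a, Sox6, Zbtb7a, Igf2bp1 and Igf2bp3), 1 was called higher (Arid3a) and 3 were called neither way (Lin28b, Igf2bp2 and Hmga2). By the same rule 49.7% of 10843 genes were called lower and 1.39% higher. Of the 3445 genes that reached 20 CPM in EryP or in definitive cells in both libraries, 85.6% were lower and 1.36% higher, and of the 4 of the 9 genes among them 3 were lower and Arid3a was higher. A lower level in EryP was therefore the rule among genes, and the counts of lower genes are close to it. The median log2 difference of those 3445 genes was -2.51 in CPM, -0.75 when globin UMIs were left out of the total and -3.13 in UMIs per cell.

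**Figure D1:**
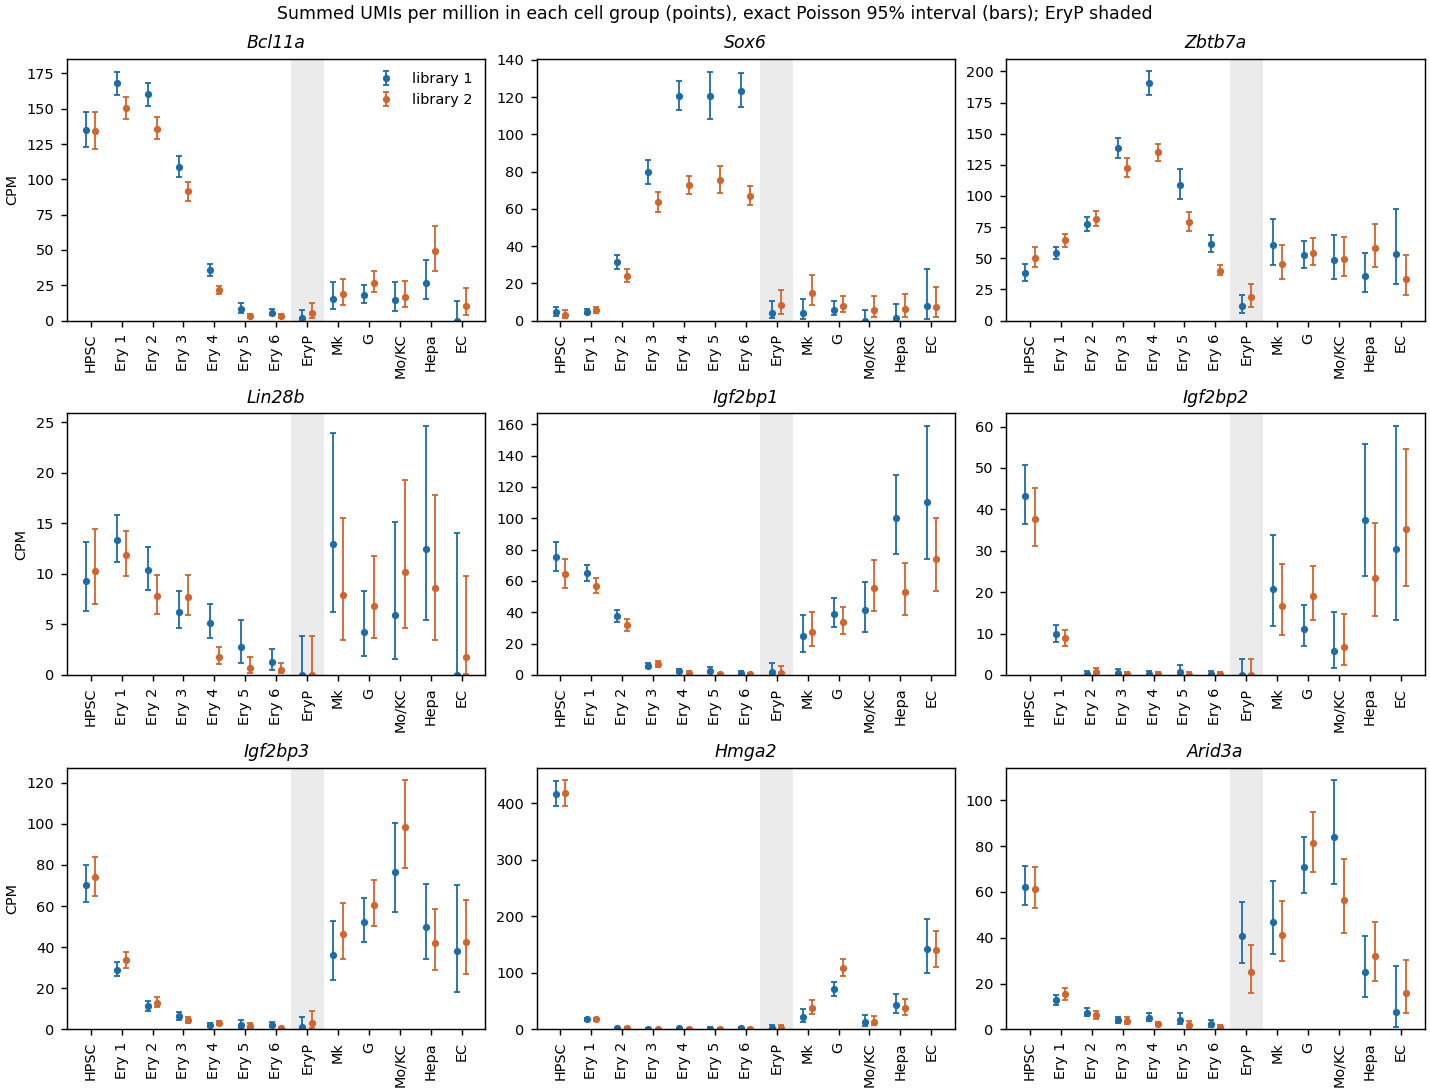
CPM (linear axes) of the 9 genes in 13 cell groups, with 1 point for each library, exact Poisson 95% intervals as bars, and EryP shaded. Bcl11a lay at 168 and 150 CPM in Ery 1 and at 2.09 and 5.18 CPM in EryP, and Arid3a in EryP lay at 40.7 and 24.9 CPM, above each of Ery 1 to Ery 6.

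Bcl11a was highest in the earliest definitive cells, in Ery 1, at 168 CPM in library 1 and at 150 CPM in library 2, and was near that level in HPSC (135 and 134 CPM) and Ery 2 (160 and 136 CPM). It then fell through Ery 3 (109 and 91.4 CPM), Ery 4 (35.7 and 21.6 CPM) and Ery 5 (8.22 and 3.07 CPM) to 5.62 and 3.13 CPM in Ery 6. Ery 6 was 29.9-fold [21.1 to 43.8] and 48.0-fold [33.7 to 70.9] below Ery 1. Outside the erythroid line Bcl11a was at 26.6 and 49.4 CPM in hepatoblasts (33 and 31 cells), 18.0 and 26.9 CPM in granulocytes and 15.6 and 18.7 CPM in megakaryocytes. In barcodes of 1 to 50 UMIs, taken as free RNA, Bcl11a was at 80.0 and 57.1 CPM, above these levels. Whether the UMIs in these types were background was not tested.

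In EryP only 2 and 5 Bcl11a UMIs were counted, or 2.09 CPM [0.253 to 7.54] and 5.18 CPM [1.68 to 12.1], against 99.4 and 67.8 CPM in definitive cells. This was a 47.6-fold [13.2 to 393] and a 13.1-fold [5.60 to 40.3] lower level, and 14.1-fold and 3.87-fold when globin UMIs were left out of the totals. Set against Ery 5 and Ery 6 alone, which carry a globin load nearer to that of EryP and held 6.5 and 3.11 CPM of Bcl11a, the ratio of EryP was 0.321 [0.0380 to 1.22] in library 1 and 1.67 [0.518 to 4.16] in library 2. The low level in EryP was thus not separated from that of the most mature definitive cells.

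Sox6 ran the other way. It was at 4.64 and 2.88 CPM in HPSC and 4.76 and 5.71 CPM in Ery 1, rose in Ery 2 (31.2 and 24.1 CPM) and Ery 3 (79.8 and 63.5 CPM), and was at 121 and 72.7 CPM in Ery 4, 121 and 75.5 CPM in Ery 5 and 123 and 67.1 CPM in Ery 6. Ery 6 was 25.9-fold [19.3 to 35.6] and 11.8-fold [8.88 to 15.9] above Ery 1, and Sox6 was the one gene of the 9 that was called higher there. By that rule 4.81% of 10043 genes were called higher in Ery 6 and 77.4% lower, with a median of -3.11 on the log2 scale over the genes at 20 CPM or more. In other cell types Sox6 stayed between 0 and 14.8 CPM.

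EryP held 4 and 8 Sox6 UMIs, or 4.17 and 8.29 CPM, against 68.4 and 51 CPM in definitive cells, a level 16.4-fold [6.39 to 60.1] and 6.16-fold [3.12 to 14.3] lower. Without globin UMIs in the totals it was 4.86-fold and 1.82-fold lower and was not called. Unlike for Bcl11a, the difference was larger against mature cells. Ery 5 and Ery 6 together held 122 and 70.2 CPM, 29.3-fold [11.4 to 108] and 8.47-fold [4.29 to 19.7] more than EryP. In definitive cells chosen to have the globin share of EryP (100 and 947 cells), Sox6 was at 76.1 and 65.0 CPM, and EryP was 18.2-fold [6.55 to 70.4] and 7.84-fold [3.95 to 18.3] lower. Against Ery alone, the early definitive cells (17.5 and 14.6 CPM), the level in EryP was 4.2-fold [1.62 to 15.5] and 1.76-fold [0.882 to 4.13] lower and was not called.

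Zbtb7a peaked between these. It rose from 54.1 and 64.3 CPM in Ery 1 through 138 and 122 CPM in Ery 3 to 190 and 135 CPM in Ery 4, and was back at 109 and 79.2 CPM in Ery 5 and 61.7 and 40.1 CPM in Ery 6. In UMIs per cell there was no such peak, with 1.42 and 1.66 UMIs in Ery 1, 1.42 and 1.55 in Ery 3, 1.12 and 1.30 in Ery 4 and 0.288 and 0.338 in Ery 6, so the rise to Ery 4 was one in the share of the cells' UMIs. In the other types it was between 33.5 and 61.0 CPM. In CPM over all UMIs, EryP was the lowest of the 13 groups in both libraries, with 11 and 18 UMIs or 11.5 and 18.6 CPM. That was 9.03-fold [5.04 to 18.1] and 4.74-fold [3.0 to 8.01] below definitive cells (104 and 88.4 CPM) and 6.77-fold [3.76 to 13.6] and 2.93-fold [1.84 to 4.97] below Ery 5 and Ery 6. In the definitive cells with the globin share of EryP, Zbtb7a was at 12.3 and 30.3 CPM and the ratio of EryP was 0.931 [0.315 to 3.06] and 0.615 [0.359 to 0.993], so the difference was not called. Without globin UMIs in the totals the level in EryP was 2.68-fold and 1.40-fold below all definitive cells.

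**Figure D2:**
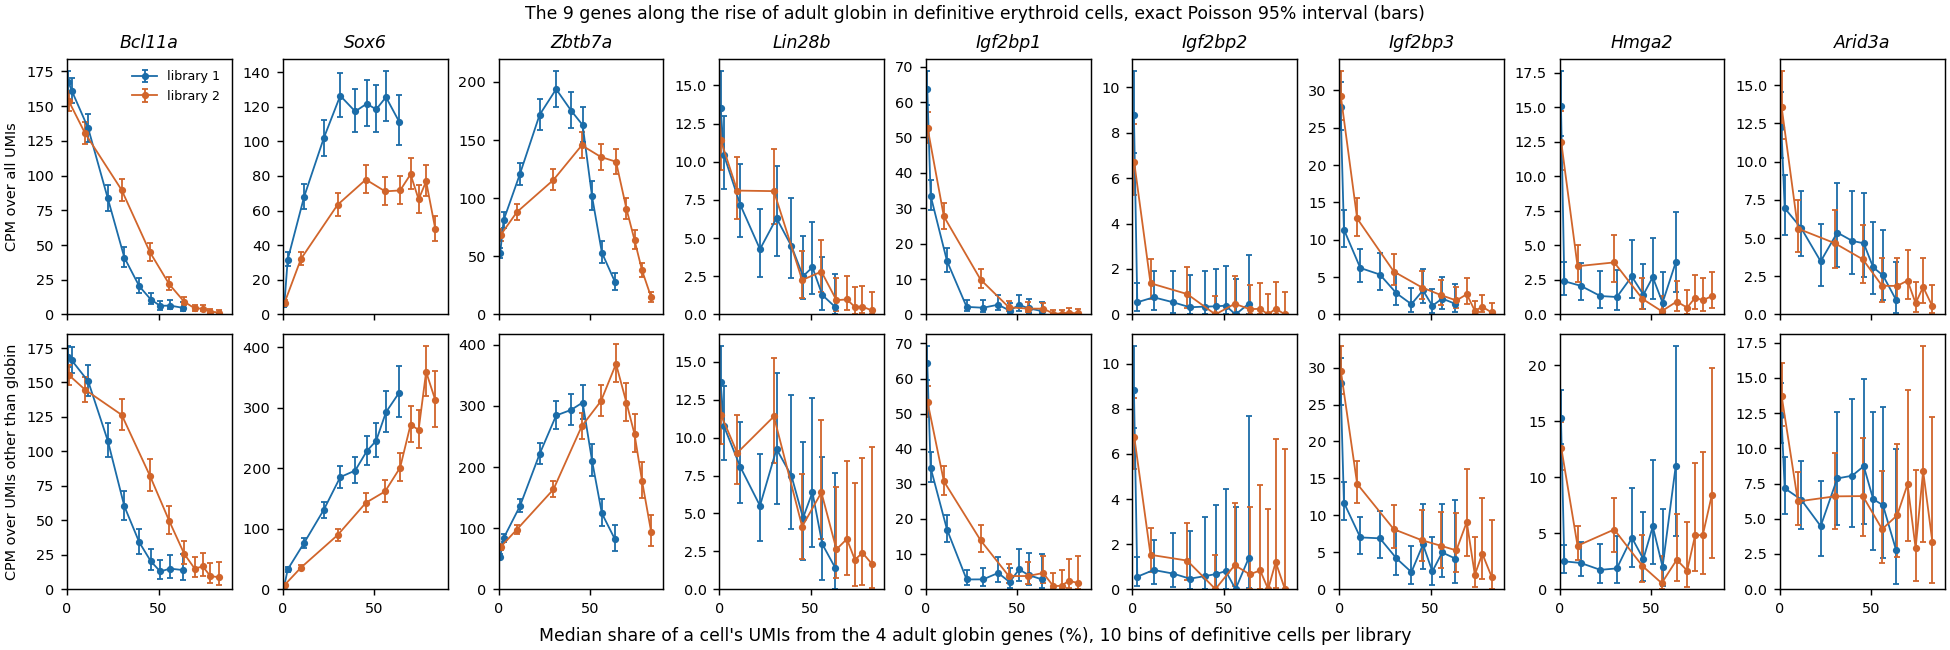
CPM of the 9 genes over all UMIs (top row) and over UMIs other than globin (bottom row) in 10 bins of definitive erythroid cells, against the median share of adult globin UMIs in percent, with 1 line for each library and exact Poisson 95% intervals as bars. In the top row Bcl11a fell from 167 to 4.72 CPM and from 154 to 1.33 CPM, Sox6 rose to 126 and 80.9 CPM, and Zbtb7a peaked at 194 and 145 CPM.

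Ordering the definitive cells by their own adult globin share, in place of the authors' clusters, gave the same order of peaks in CPM in library 2. In library 1 Zbtb7a and Sox6 peaked in the same bin. In UMIs per cell the order did not hold in library 2, where Bcl11a and Zbtb7a shared a bin. The median share rose from 0.79% to 63.5% over the 10 bins of library 1 and from 0.95% to 83.3% in library 2. Bcl11a was highest in the first bin, Zbtb7a in bin 5 and bin 4, and Sox6 in bin 5 and bin 7, after which it was still at 111 and 49.2 CPM in the last bin. With globin UMIs left out of the totals, Zbtb7a peaked in bin 7 and bin 6 (306 and 369 CPM) and Sox6 in bin 10 and bin 9 (325 and 360 CPM). In UMIs per cell Bcl11a was highest in bin 1 of both libraries, Zbtb7a in bin 4 of library 1 and in bin 1 of library 2, and Sox6 in bin 5 and bin 3. The adult globins are counted in both the axis and the CPM total, so the ordering and the levels share those UMIs.

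To compare shares of cells at 1 total depth, each cell was thinned to 3600 UMIs, globin included. A Bcl11a UMI was then found in 46.4% and 37.0% of Ery 1 cells, 30.2% and 26.7% of Ery 3 cells and 1.94% and 0.935% of Ery 6 cells. Sox6 was found in 1.87% and 1.39% of Ery 1 cells, 23.2% and 18.0% of Ery 3 cells and 32.6% and 20.4% of Ery 6 cells. Both were found together in 6.11% and 6.21% of Ery 3 cells, the highest share of Ery 1 to Ery 6, against 0.533% and 0.279% of Ery 1 cells and 0.612% and 0.0850% of Ery 6 cells. In granulocytes, which are not erythroid, Sox6 was found in 1.47% and 2.31% of thinned cells (median depth before thinning 10550 and 14769 UMIs, against 4378 and 7882.5 UMIs in Ery 6). In EryP, Bcl11a was found in 2 of 141 and 2 of 118 cells, Sox6 in 1 of 141 and 1 of 118 cells, and no cell held both.

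The depth left for genes other than globin was not equal under that thinning, at a mean of 3562 and 3500 UMIs in Ery 1, 1499 and 773 UMIs in Ery 6 and 819 and 607 UMIs in EryP. Each cell was therefore also thinned to 600 UMIs other than globin, an alternative chosen after seeing the data. Bcl11a was then found in 9.33% and 7.52% of Ery 1 cells, 0.906% and 0.512% of Ery 6 cells and 0.676% and 0% of EryP cells, where the 0 of 113 cells of library 2 has an exact upper bound of 3.21%. Sox6 was found in 0.267% and 0% of Ery 1 cells, 15.8% and 16.3% of Ery 6 cells and 0% and 4.42% of EryP cells. Zbtb7a was found in 2.67% and 3.06% of Ery 1 cells, 17.5% and 18.0% of Ery 4 cells and 4.05% and 3.54% of EryP cells. Arid3a was found in 10.8% [6.31 to 17.0] and 7.96% [3.71 to 14.6] of EryP cells, against 1.07% and 0.279% of Ery 1 cells and 0.329% and 0.342% of Ery 6 cells. At this depth too, the share of EryP lay below that of Ery 6 for Sox6 and above that of Ery 1 and Ery 6 for Arid3a in both libraries.

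**Figure D3:**
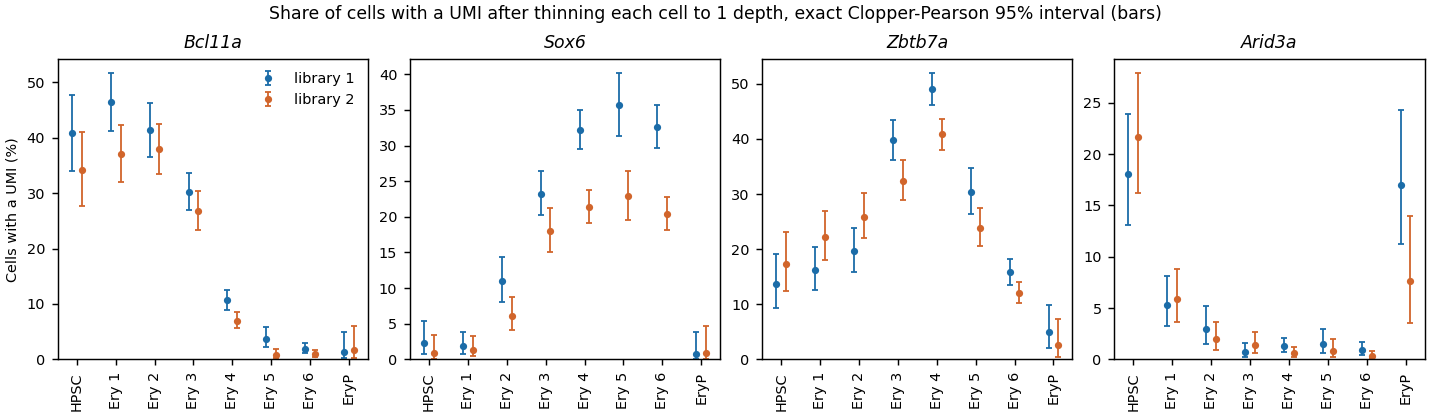
Percent of cells with at least 1 UMI of Bcl11a, Sox6, Zbtb7a or Arid3a after thinning each cell to 3600 UMIs, in HPSC, Ery 1 to Ery 6 and EryP of each library, with exact Clopper-Pearson 95% intervals as bars. Bcl11a fell from 46.4% and 37.0% in Ery 1 to 1.94% and 0.935% in Ery 6, Sox6 rose from 1.87% and 1.39% to 32.6% and 20.4%, and Arid3a stood at 17.0% and 7.63% in EryP.

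Lin28b was a low gene in these libraries. It was highest in Ery 1 (13.4 and 11.8 CPM), stood at 9.28 and 10.2 CPM in HPSC and fell to 1.23 and 0.505 CPM in Ery 6, a level 10.9-fold [5.13 to 27.6] and 23.5-fold [9.76 to 73.7] below Ery 1. In EryP no Lin28b UMI was counted in either library. With 3 counts as the limit that a count of 0 allows, which is 3.13 and 3.11 CPM, EryP was at least 2.44-fold and 1.63-fold below the 7.64 and 5.07 CPM of definitive cells, and a deficit of 2-fold could not be shown in library 2 at this depth. Without globin UMIs in the totals that limit lay above the level of definitive cells, at a mean log2 difference of 0.76. On that scale no deficit of Lin28b in EryP was shown.

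Igf2bp1 and Igf2bp3 had higher levels in progenitors and fell early in the definitive line. Igf2bp1 was at 75.4 and 64.3 CPM in HPSC, 64.8 and 57.1 CPM in Ery 1, 37.6 and 31.7 CPM in Ery 2, 5.72 and 7.09 CPM in Ery 3 and 1.23 and 0.404 CPM in Ery 6. It was also high in endothelial cells (111 and 74.1 CPM, from 20 and 26 cells), hepatoblasts (100 and 53.1 CPM) and Mo/KC (41.3 and 55.3 CPM). Ery 6 was 52.7-fold [25.4 to 132] and 141-fold [54.9 to 521] below Ery 1. In EryP 2 and 1 Igf2bp1 UMIs were counted, or 2.09 and 1.04 CPM, against 24.5 and 16.6 CPM in definitive cells, a ratio of 11.7-fold [3.24 to 97.0] and 16.0-fold [2.87 to 634] lower.

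Igf2bp3 was highest in Mo/KC (76.6 and 98.3 CPM) and HPSC (70.5 and 73.9 CPM) and went from 29.1 and 33.7 CPM in Ery 1 to 2.11 and 0.404 CPM in Ery 6, 13.8-fold [7.77 to 27.0] and 83.5-fold [32.3 to 308] lower. In EryP 1 and 3 UMIs were counted, or 1.04 and 3.11 CPM, against 10.9 and 9.56 CPM in definitive cells, 10.4-fold [1.86 to 413] and 3.08-fold [1.05 to 15] lower in EryP. It was not called without globin UMIs in the totals, where Igf2bp1 still was. Igf2bp3 was not called against Ery 5 and Ery 6. Igf2bp1 had too few UMIs to be called there, with 1 in EryP and 7 in Ery 5 and Ery 6 of library 2. Its ratio of EryP to them was 1.28 [0.142 to 5.59] and 2.33 [0.0518 to 18.2].

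Igf2bp2 and Hmga2 fell from HPSC to Ery 1 and again to Ery 2, Hmga2 more at the former step and Igf2bp2 more at the latter. Igf2bp2 dropped from 43.2 and 37.8 CPM in HPSC to 9.93 and 8.83 CPM in Ery 1 and to 0.327 and 0.804 CPM in Ery 2, and no UMI of it was counted in EryP, where definitive cells themselves held only 2.54 and 1.78 CPM. Igf2bp2 was not particular to HPSC, with 37.5 and 23.5 CPM in hepatoblasts, 30.5 and 35.3 CPM in endothelial cells and 20.8 and 16.8 CPM in megakaryocytes. Hmga2 stood at 416 and 417 CPM in HPSC, 23.5-fold [20.1 to 27.6] and 23.3-fold [19.8 to 27.6] above the 17.7 and 17.9 CPM of Ery 1, and fell to 1.85 and 2.07 CPM in Ery 2. After thinning, 69.7% and 62.5% of HPSC held an Hmga2 UMI, against 7.20% and 8.08% of Ery 1 cells and 0.917% and 0.510% of Ery 6 cells. It was also present in endothelial cells (141 and 139 CPM) and granulocytes (70.8 and 108 CPM). Definitive cells held 5.33 and 3.98 CPM of Hmga2 and EryP 2.09 and 2.07 CPM (2 UMIs in each library), which is under 2-fold in library 2 and was not called. The steps from HPSC to Ery 1 were 4.35-fold [3.35 to 5.68] and 4.28-fold [3.2 to 5.74] for Igf2bp2, 2.42-fold [2.03 to 2.89] and 2.19-fold [1.84 to 2.61] for Igf2bp3 and 1.16-fold [1.0 to 1.35] and 1.13-fold [0.953 to 1.33] for Igf2bp1, and these intervals do not overlap between the 3 paralogs.

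From Ery 1 to Ery 6, all 6 genes of the Lin28b programme and Bcl11a were called lower, Sox6 higher and Zbtb7a neither way (ratios 1.14 [0.994 to 1.31] and 0.623 [0.548 to 0.709]). The 7 of 9 lower genes stand against 77.4% of all genes tested. Zbtb7a depended on the scale. Without globin UMIs it was 2.69-fold and 2.83-fold higher in Ery 6, and in UMIs per cell it was 4.94-fold and 4.93-fold lower, since an Ery 6 cell held a median of 4378 and 7882.5 UMIs and an Ery 1 cell 26146 and 25977. Sox6 was higher and the 7 others lower on all 3 scales.

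Arid3a was the exception in EryP. Library 1 gave 40.7 CPM [28.9 to 55.6], from 39 UMIs in 36 cells, and library 2 gave 24.9 CPM [15.9 to 37.0], from 24 UMIs in 20 cells, whereas definitive cells held 6.65 and 5.12 CPM. EryP was 6.12-fold [4.27 to 8.57] and 4.85-fold [3.06 to 7.37] higher, with Ery 1 at 12.7 and 15.3 CPM and Ery 6 at 2.28 and 1.01 CPM. Against Ery 1, the definitive group nearest to it, the ratio of EryP was 3.22 [2.18 to 4.64] and 1.63 [1.01 to 2.52] in CPM but 0.688 and 0.514 in UMIs per cell, an Ery 1 cell holding more UMIs in all. Against all definitive cells the ratio was 20.6 and 16.4 without globin UMIs and 3.79 and 3.29 in UMIs per cell. In CPM the ratio was larger against mature cells, at 14.0 [8.28 to 24.2] and 17.8 [9.57 to 33.3] against Ery 5 and Ery 6 and at least 6.60 and 22.7 [10.2 to 55.5] against definitive cells with the globin share of EryP. Against Ery 5 and Ery 6, 6 of the 9 genes had enough UMIs to be called, and Lin28b, Igf2bp1 and Igf2bp2 did not. Of these 6, Arid3a was the only one called higher, where 3.17% of 7151 genes were, and Sox6 and Zbtb7a were the 2 called lower, where 20% were. Among cells with at least 1000 genes and under 10% mitochondrial UMIs, only 13 and 11 EryP cells were left and Arid3a, at a mean log2 difference of 1.88, was not called.

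**Figure D4:**
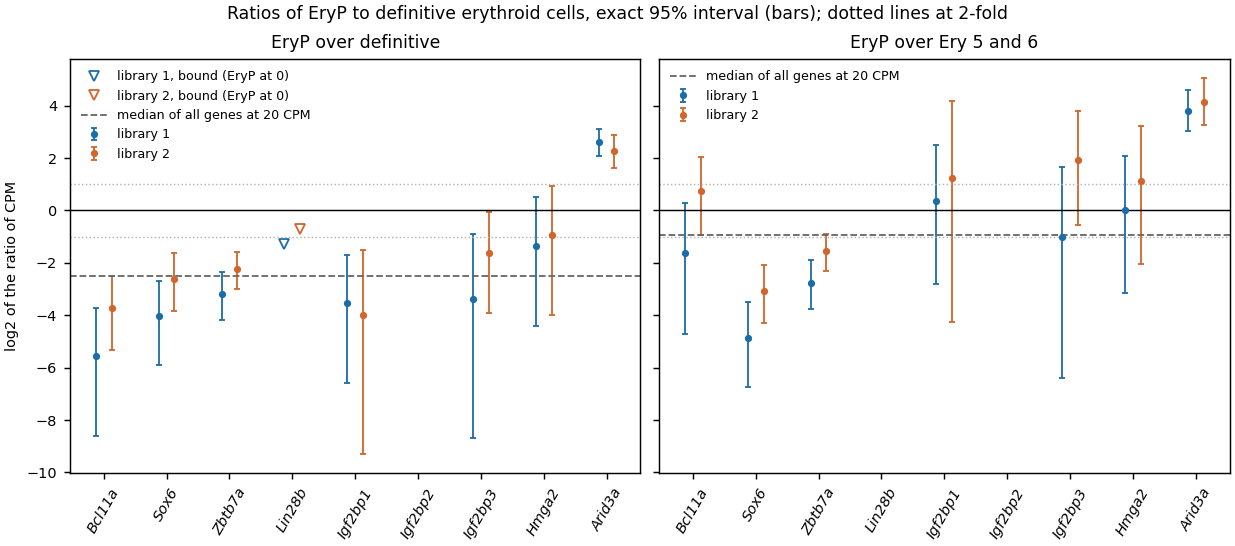
log2 of the CPM ratio of EryP to all definitive cells (left) and to Ery 5 and Ery 6 (right) for the 9 genes, with 1 point for each library, exact 95% intervals as bars, open triangles for bounds where EryP was at 0, dotted lines at 2-fold and a dashed line at the median of all genes at 20 CPM or more. Arid3a lay above the upper 2-fold line in both panels, Sox6 and Zbtb7a lay below the lower one in both, and Bcl11a did so in both libraries only on the left.

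Among all types, in CPM over all UMIs, Arid3a was highest in Mo/KC (84.0 and 56.5 CPM), granulocytes (70.8 and 81.2 CPM) and HPSC (62.3 and 61.4 CPM). Megakaryocytes followed (46.8 and 41.4 CPM), and the intervals of EryP overlapped those of its neighbours in this order. Over UMIs other than globin the order changed, and EryP was the highest of all types at 175 and 142 CPM. On that scale Mo/KC held 85.0 and 58.7 CPM, granulocytes 72.1 and 85.0 CPM and HPSC 63.3 and 63.3 CPM. The level of 19 marker genes of these other types was set beside that of Arid3a. Summed, they were at 78.3 and 33.1 CPM in EryP, below each of Ery 1 to Ery 6 (80.2 to 273 CPM and 46.9 to 254 CPM), with 6 and 9 of the 19 at 0. Over UMIs other than globin they were at 336 and 190 CPM in EryP, in library 1 above each of Ery 1 to Ery 6 (90.2 to 276 CPM) and in library 2 within their range (84.0 to 260 CPM), so this ranking turned with the scale. The 111 and 88 EryP cells without a UMI of any of them held 38.1 CPM [24.2 to 57.2] and 23.7 CPM [13.6 to 38.6] of Arid3a, and the other EryP cells 45.0 and 27.4 CPM. In barcodes of 1 to 50 UMIs, taken as free RNA, Arid3a was at 10.6 and 9.18 CPM. In CPM over all UMIs it was the only one of the 9 genes with a level in EryP above that of the free RNA. The share of a cell's UMIs that was free RNA was not measured. Whether the few UMIs of the 8 others in EryP were background was therefore not tested. After thinning, 17.0% [11.2 to 24.3] and 7.63% [3.55 to 14.0] of EryP cells held an Arid3a UMI (21.2% and 16.9% before), against 5.33% and 5.85% of Ery 1 and 0.917% and 0.340% of Ery 6. The embryonic globins marked EryP in the same cells, Hbb-y with 527810 and 406241 CPM and Hba-x with 61938 and 53556 CPM. Adult globins were also counted there, at 15.1% and 34.3% of the UMIs of EryP. Of these, Hba-a1 stood at 66184 and 148884 CPM, beside 33295 and 67633 CPM in free RNA. Hbb-bh1 stood at 25819 and 22329 CPM in EryP, and in the definitive line it was at 110 and 196 CPM in Ery 1 and 9705 and 5450 CPM in Ery 6, with 2719 and 2595 CPM in free RNA.

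Most genes of the wider globin circuit were called lower in EryP. Of 28 partners and other regulators of globin genes, 27 had at least 10 UMIs. Of these, 22 were called lower in EryP than in definitive cells and 1 higher, where 49.7% of all genes were lower and 1.39% higher. Their median log2 difference was -2.35, beside -1.38 over all genes tested. All 15 that reached 20 CPM in EryP or in definitive cells were lower (median -2.65), as were 85.6% of all genes at that level (median -2.51). The list thus lay near genes of like level. Mta2, a NuRD subunit, had the lowest mean ratio (3.13 and 4.14 CPM in EryP, 69.5 and 46.9 CPM in definitive cells). Nfix, a nuclear factor I protein, was the one higher, at 33.4 and 15.5 CPM against 3.65 and 2.51 CPM, or 9.16-fold and 6.20-fold. Klf1, the erythroid activator, was at 141 and 101 CPM in EryP and 680 and 486 CPM in definitive cells. Kdm1a (8.35 and 8.29 CPM against 19.2 and 14.8 CPM) and Gatad2b (14.6 and 9.32 CPM against 24.2 and 18.9 CPM) lay nearest to 2-fold and were not called. Against Ery 5 and Ery 6, 6 of 24 were lower and 1 higher, where 20% of all genes were lower and 3.17% higher.

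Of 12 genes of let-7 maturation and function, 10 had enough UMIs and 8 were called lower in EryP and none higher (median -2.12), where 49.7% of all genes were lower and 1.39% higher. Tarbp2, a partner of Dicer, had the lowest mean ratio (2.09 and 2.07 CPM against 41.3 and 31.9 CPM). Its level in EryP is that of 2 UMIs in each library. A gene at 0 in EryP is set to 3 counts, so the lowest rank can depend on that floor. Zcchc6, a uridylyltransferase, was at 18.8 and 15.5 CPM against 44.7 and 34.8 CPM. Lin28a, the paralog of Lin28b, was at most 0.0923 CPM in definitive cells. Of 15 other genes known or predicted as let-7 targets, 8 were lower and none higher (median -1.59) beside the same shares of all genes, for example Myc (11.5 and 1.04 CPM against 53.6 and 29.7 CPM). At 20 CPM or more, all 3 genes of the former list and all 6 of the latter were lower (medians -2.41 and -2.62). This stands beside 85.6% of all genes at that level (median -2.51). Against Ery 5 and Ery 6, 3 of 7 and 1 of 10 genes of these lists were lower, where 20% of all genes were.

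**Figure D5:**
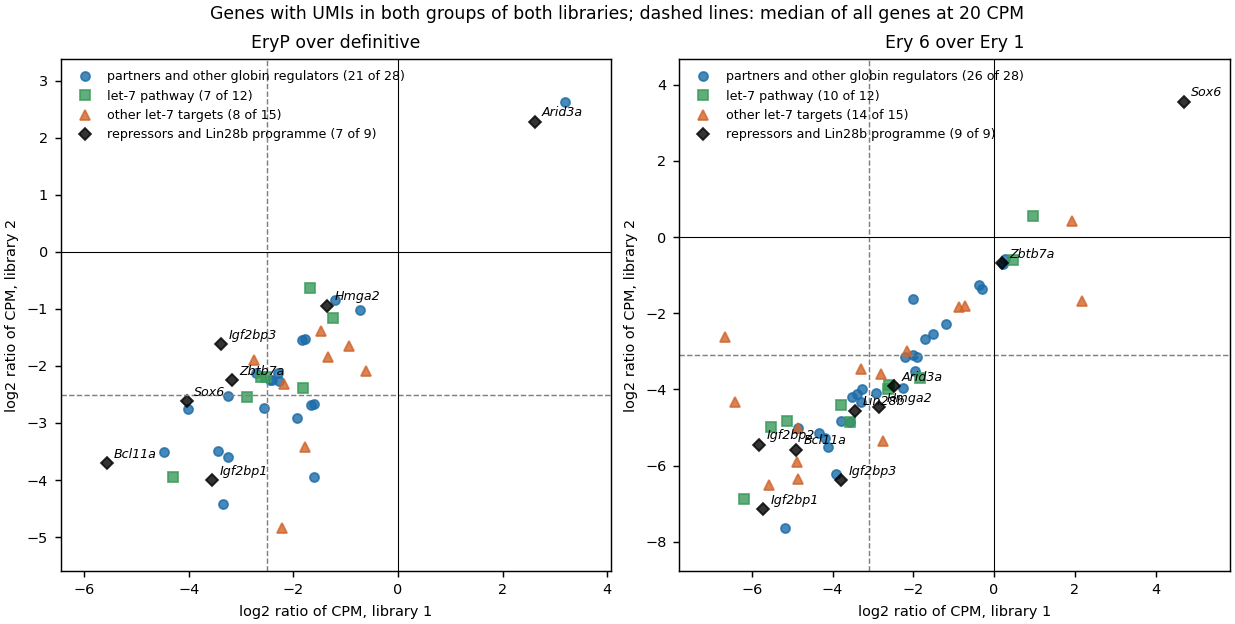
log2 CPM ratio in library 1 (horizontal) against library 2 (vertical) for EryP over definitive cells (left) and Ery 6 over Ery 1 (right), with 1 point for each gene of the 3 lists and the 9 genes that had UMIs in both groups of both libraries, and dashed lines at the median of all genes at 20 CPM or more. On the left Arid3a and one globin regulator, Nfix, lay at the upper right, and on the right Sox6 lay farthest to the upper right.

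Across the 13 cell groups, the levels of Igf2bp2 and Hmga2 went most closely together (r of log2(CPM + 1), 0.93 in library 1 and 0.97 in library 2). Next, by the lower r of the libraries, came Igf2bp1 and Igf2bp3 (0.92 and 0.94), Igf2bp2 and Igf2bp3 (0.88 and 0.89) and Igf2bp1 and Igf2bp2 (0.85 and 0.86). Bcl11a and Lin28b were less close (0.84 and 0.84), and Sox6 and Arid3a ran opposite (-0.87 and -0.90). The 13 groups share a liver and 2 libraries, and 6 of them are stages of 1 line, so these values describe the profiles. Among 7356 genes, the profile of Sox6 was like those of Slc43a1 and Hemgn (r of at least 0.942 in both libraries), that of Zbtb7a like Dck, Senp2 and Rrm2, that of Bcl11a like Ccdc6, Nudt19 and Nfs1, and that of Igf2bp1 like Tnpo1, Gcsh and Dcakd. Igf2bp2 was most like H1fx, Pcbp4 and Ifitm2, Igf2bp3 like Lypla1, Tmem106c and Pbx2, Hmga2 like Zfp358, Fchsd2 and Mdfi, and Arid3a like Zfp36, Tnfaip8 and Rnh1. Lin28b did not reach the 20 CPM needed for this comparison.

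The 9 genes lie on 5 chromosomes of GRCm38 and each is annotated as protein coding. Bcl11a is at chr11:24078056-24174123, Sox6 at chr7:115470872-116038796, Zbtb7a at chr10:81135220-81152995 and Lin28b at chr10:45376620-45486395. Igf2bp1 is at chr11:95957163-96005940, Igf2bp2 at chr16:22059009-22163299, Igf2bp3 at chr6:49085223-49214957, Hmga2 at chr10:120361275-120476469 and Arid3a at chr10:79927043-79955018.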

How the data were processed

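The deposited files hold UMI counts of each gene in each cell, for 2 technical replicate libraries of 1 liver, together with a table of cell types and clusters. Per the study's methods the authors processed the reads with Cell Ranger 2.1.1 on mm10 (the matrix header of library 1 names software version 3.0.0) and used Seurat 3.2.0, removing cells with fewer than 200 genes. They sorted out doublets by flow cytometry, and no doublet caller was run here. The 10537 cells of their table were used as labelled (5480 and 5057), from whose median depths of 6261 and 9774 UMIs the precision follows. Counts were summed per cell group and library, divided by the group's total and given as CPM with exact Poisson intervals, and ratios with exact conditional binomial intervals (scipy 1.17.1 under Python 3.11.15, with pandas 2.3.3 for tables, numpy 2.4.6 for sums and matplotlib 3.10.9 for plots). A group at 0 was set to 3 counts for a bound, and no fold was given where both groups were at or below that floor. Shares of cells were taken after thinning to 3600 UMIs (seed 1), with shallower cells left out, and carry Clopper-Pearson intervals. Definitive cells with the globin share of EryP are those between its 10th and 90th percentile in the same library. With 1 liver no test between samples was possible. The scripts were tested on simulated counts.

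The 9 genes and all lists were chosen with earlier results of these data known. Genes named from a list are its lowest and highest ratio of EryP to definitive cells and those nearest 2-fold. The genes alike in profile are the 3 with the highest Pearson r over 13 groups, taking the lower r of the libraries, and 1 of them is not reported here. Klf1, Zcchc6 and Lin28a were named after their values were seen. All 9 Ensembl identifiers matched GENCODE vM21 (GRCm38), which also gave the 3′ UTRs, and 7 of the 9 genes were in the RefSeq promoter table. Barcodes with 1 to 50 UMIs served as free RNA. Alternatives left out 1 library, took other totals, cell filters, fold limits or definitive cells, or subtracted free RNA. EryP cells without a UMI of markers of other types, the mean over thinning draws and thinning to UMIs other than globin were chosen after seeing the data.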

Additional observations from a re-analysis of the deposited data

Results flagged for a closer look

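Library 2 held 3311 barcodes with at least 1000 UMIs and 200 genes that the authors did not call as cells and no comparison used, against 168 in library 1. All 9 genes were above the limit of a count of 0 in those of library 2: Zbtb7a stood at 68.3 CPM, Bcl11a at 58.5 CPM, Sox6 at 35.0 CPM, Hmga2 at 20.2 CPM, Igf2bp3 at 13.4 CPM, Igf2bp1 at 11.9 CPM, Arid3a at 11.7 CPM, Igf2bp2 at 6.97 CPM and Lin28b at 4.01 CPM. In free RNA of the same library the values were 57.1 CPM for Zbtb7a, 57.1 CPM for Bcl11a and 50.0 CPM for Sox6. There Hmga2 was at 26.5 CPM, Igf2bp1 at 13.8 CPM, Igf2bp3 at 12.8 CPM, Arid3a at 9.18 CPM, Igf2bp2 at 4.08 CPM and Lin28b at 3.06 CPM. Whether these barcodes held cells or free RNA was not tested.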

How the results depend on the processing

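Every value comes from 1 liver, and EryP rests on 288 cells, so that genes of a few CPM could not be placed there. The number of the 9 genes called lower in EryP was 5, where 49.7% of all genes tested were. It moved to 2 without globin UMIs in the totals (Bcl11a and Igf2bp1) and to 1 among cells with at least 1000 genes and under 10% mitochondrial UMIs (Bcl11a, with 13 and 11 EryP cells left). It was 3 against Eryb alone, 2 against Ery 5 and Ery 6 alone (of 6 with enough UMIs, where 20% of all genes were lower) and 1 against definitive cells matched on globin share. In the matched comparison, Bcl11a, Lin28b, Igf2bp1, Igf2bp2, Igf2bp3 and Hmga2 had under 10 UMIs in library 1 and could not be called. The share over all genes is not given here for the other alternatives. With the 1000-gene filter the number called higher in EryP fell from 1 to 0, and without globin UMIs the number higher in Ery 6 rose from 1 to 2 with Zbtb7a. Among the 6 genes called in EryP, the mean log2 difference of the libraries changed sign for Igf2bp3 (0.84 with the 1000-gene filter and 0.46 against Ery 5 and Ery 6), Igf2bp1 (0.79 against Ery 5 and Ery 6) and Bcl11a (0.0205 when matched on globin share), and the cause was not tested. The libraries disagreed in sign for Igf2bp3 against Ery 5 and Ery 6 (1.04 and 3.11 CPM in EryP against 2.09 and 0.825 CPM). They also did for Bcl11a when matched (2.09 and 5.18 CPM against 6.17 and 1.70 CPM). These 3 genes had at most 5 UMIs in EryP in a library, so these changes of sign need not be directions. The 3 genes called neither way had 0 to 2 UMIs in EryP, and a count of 0 was set to 3 counts, so a sign there need not be a direction. Hmga2 moved from -1.15 to 0.61 without globin UMIs and 0.86 against Eryb alone. It was put at 2.04 with the 1000-gene filter and 3.54 with free RNA at 20% subtracted. Lin28b and Igf2bp2 had no UMI in EryP in either library, so their values are upper limits set by that floor. A positive limit shows no higher level in EryP. For Lin28b the limits were -0.996 as reported, 0.76 without globin UMIs, 1.54 with the 1000-gene filter, 1.65 against Ery 5 and Ery 6 and 1.85 when matched. For Igf2bp2 they were 0.55 as reported and -0.72 against Ery alone. Leaving out 1 library gave 5 to 7 genes lower in EryP (7 without library 2, with Lin28b and Hmga2 added), and always 1 higher in EryP, 7 lower and 1 higher in Ery 6. With cells thinned to 3600 UMIs it always left 8 genes with a larger share in definitive cells than in EryP, and no share over all genes is given for that count. At 600 UMIs other than globin the share was larger in EryP for Hmga2 (1.35% and 0.885% against 0.191% and 0.407%). The same held for Igf2bp3 (0.676% and 2.65% against 0.509% and 0.520%), with few EryP cells positive for either gene. Of 69 counts under the alternatives 62 stayed within 1.5 times. Of 135 differences of single genes 60 stayed within the spread between libraries, 71 moved beyond it and 4 changed sign among the 6 genes called in EryP. The 60 include the differences with 1 library left out. Those equal the value of the other library and could not move beyond that spread. No paired analysis was possible because only 1 liver was sequenced and no result comes from a test, though the groups were compared within each library.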
